A study of Mus musculus with 26 samples.

Results

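The 9 genes described here (Hmox1, Gpx2, Txnrd1, Nqo1, Gclm, Gclc, Srxn1, Prdx1 and Osgin1) are enzymes and stress genes commonly used as readouts of the antioxidant factor NRF2, and they were followed across all 12 groups of a study of mouse pancreatic islets. They were chosen by name, with earlier results of these data known, and each was read from the brightest probe set annotated to that gene alone. This gave values for 8 of the 9 genes, among 12580 genes tested in all. Prdx1, a peroxide-reducing peroxiredoxin, was not analysed here, because its 5 probe sets are all annotated to Gm21399 as well.

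Islets came from wild-type male C57/Bl6J mice aged 56 weeks (old) or 5 weeks (young). The labels give no genetic change or drug. Cultured islets recovered for 1 day in RPMI with 11 mM glucose and were then kept for 2 days at 3, 5.5 or 11 mM glucose (old) or at 3, 5.5, 11 or 16 mM glucose (young), and fresh islets of each age were the reference. A time course placed young islets overnight at 3 mM glucose and then at 11 mM glucose for 1 h or 4 h, against the islets taken at time 0. No group stayed at 3 mM for the same hours, so that glucose and hours of incubation cannot be told apart there. There were 4 Affymetrix arrays of young islets at 11 mM and 2 of each other group, or 26 in all. The replicates are biological per the labels, pooling of mice is not mentioned, and a p-value here measures the spread between samples, part of which may be technical.

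NRF2 (encoded by Nfe2l2) is a transcription factor that the adaptor KEAP1 holds in the cytoplasm and marks for degradation. Electrophiles and oxidants modify KEAP1, NRF2 then accumulates, pairs with small MAF proteins and binds antioxidant response elements in promoters and enhancers. The repressor BACH1 competes for many of the same elements, and heme releases it from DNA. Beta cells, the insulin-secreting cells that make up most of an islet, are known for low levels of several peroxide-removing enzymes.

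The genes lie on 7 chromosomes of GRCm38.p6: Srxn1 at chr2:152105524-152111376, Gclm at chr3:122245487-122267215, Prdx1 at chr4:116685599-116700000, Hmox1 at chr8:75093618-75100593, Nqo1 at chr8:107388225-107403205, Osgin1 at chr8:119425882-119446257, Gclc at chr9:77754535-77794489, Txnrd1 at chr10:82833951-82897724 and Gpx2 at chr12:76792335-76795554. RefSeq promoter windows of that build, from 250 bases before to 50 bases after a transcript start, were matched to 7 of the 9 genes in 9 windows. Hmox1 and Gclc had no window and were not searched. On either strand, the antioxidant response element core TGACNNNGC was present in 4 of the 9 windows (1 each of Gclm, Prdx1, Srxn1 and Txnrd1) and in 12.4% of all 32851 promoter windows. The letters TGAGTCA, the AP-1 site that is also part of many antioxidant response elements, were present in 3 of the 9 windows (Osgin1, Prdx1 and Srxn1) and in 5.2% of all windows. In Prdx1 a match of each motif overlapped. The windows of Srxn1 (chr2:152105274-152105573, + strand), Osgin1 (chr8:119436897-119437196, + strand) and Txnrd1 (chr10:82858956-82859255, + strand) are printed because these 3 genes rose together within 4 h at 11 mM glucose and each window holds 1 or both motifs. Capitals mark the matches of either motif on either strand. A match is a description of the letters, not a shown binding site. Gclm, whose window also holds the core, was not called at 4 h, and a link between motif and change was not tested.

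Srxn1: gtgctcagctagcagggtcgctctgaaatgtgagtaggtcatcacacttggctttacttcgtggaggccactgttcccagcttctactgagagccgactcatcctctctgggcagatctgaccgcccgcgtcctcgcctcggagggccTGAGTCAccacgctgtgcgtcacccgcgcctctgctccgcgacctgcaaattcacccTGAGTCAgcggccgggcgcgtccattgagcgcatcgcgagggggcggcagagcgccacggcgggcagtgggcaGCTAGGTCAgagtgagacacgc
Osgin1: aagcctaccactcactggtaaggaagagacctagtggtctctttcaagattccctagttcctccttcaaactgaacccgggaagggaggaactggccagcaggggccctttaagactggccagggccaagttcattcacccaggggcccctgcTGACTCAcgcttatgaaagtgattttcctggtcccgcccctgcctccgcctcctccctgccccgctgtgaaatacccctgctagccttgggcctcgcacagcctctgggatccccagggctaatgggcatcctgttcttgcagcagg
Txnrd1: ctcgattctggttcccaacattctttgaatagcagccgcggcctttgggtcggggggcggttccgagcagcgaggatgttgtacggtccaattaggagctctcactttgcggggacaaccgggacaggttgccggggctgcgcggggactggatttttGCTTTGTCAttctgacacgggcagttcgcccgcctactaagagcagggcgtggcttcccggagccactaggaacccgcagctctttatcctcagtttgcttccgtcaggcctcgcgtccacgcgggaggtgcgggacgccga

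In Srxn1, TGAGTCA began 102 and 45 bases before the start, and the element core lay on the reverse strand 29 bases after it (read on the printed strand as GCTAGGTCA). In Osgin1 the motif TGAGTCA was on the reverse strand, 97 bases before the start. The printed windows of Osgin1 and Txnrd1 lie inside the gene spans given above. In Txnrd1 the element core was on the reverse strand, 92 bases before the start of this window, and the other 2 windows of Txnrd1 held neither motif.

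Signals are MAS5 intensities that the authors had scaled, and on each array the mean after trimming 2% at each end was 150. The array medians were 28 to 42. Control probe sets at both ends of Gapdh give a 5'/3' ratio, which falls when labelled RNA is short, and it split the arrays into a set A (1.03 to 1.48, 12 arrays) and a set B (0.1 to 0.277, 14 arrays), neither of them named by the labels. Set A held the old islets, the young fresh islets and, of the young islets at 11 mM, replicates 3 and 4, and set B held the other young cultures and the time course. Only young islets at 11 mM were in both sets, and there set A minus set B was 1.31 for Nqo1, 0.77 for Gclm and -1.07 for Osgin1 on the log2 scale, and between -0.36 and 0.29 for the other 5 genes. Comparisons of 2 groups were therefore made within a set, and young islets at 3, 5.5 and 16 mM were not tested against fresh islets. Summed signals of 7 beta cell markers, with Ins2 and Slc2a2 among them, were 14054 to 47352 over all groups and moved with culture and glucose, as given beside the results.

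**Figure D1:**
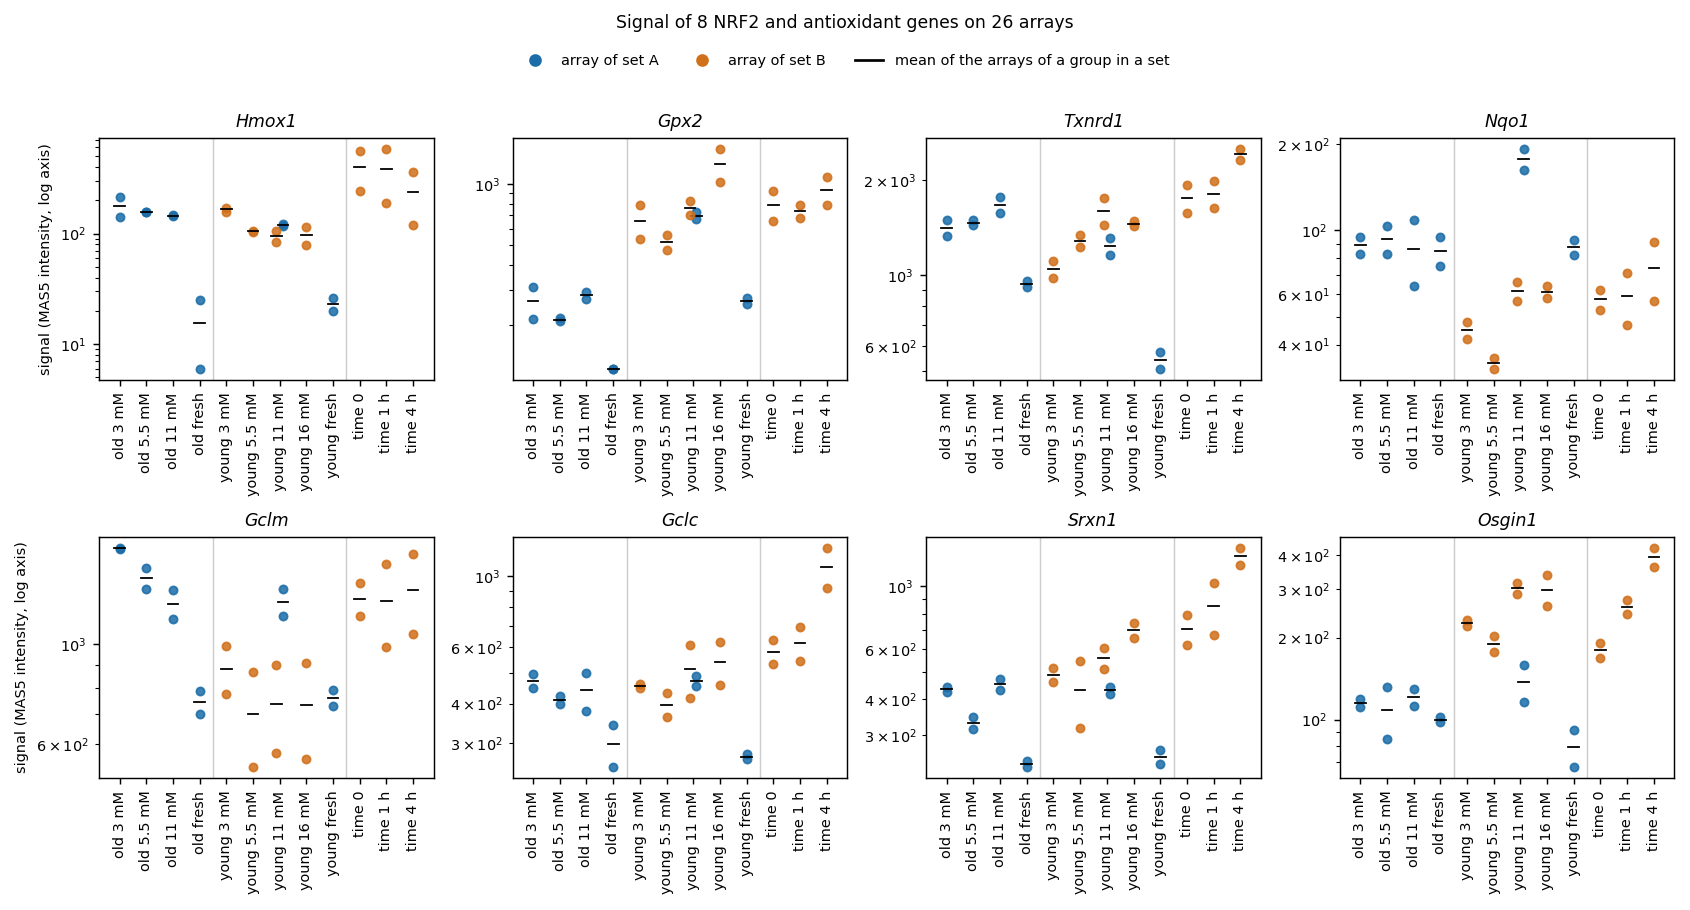
Signal of 8 NRF2 and antioxidant genes (MAS5 intensity, log axis) on each of the 26 arrays by group, with set A in blue, set B in orange and a bar for the mean of a group's arrays in a set. Hmox1 lies at 6 to 26 on the 4 fresh arrays and at 79 or more on every other array, and Nqo1, Gclm and Osgin1 differ between the sets in young islets at 11 mM.

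Every call among these 8 genes between cultured and fresh islets was towards a higher signal in culture. Heme oxygenase Hmox1, the selenoenzyme peroxidase Gpx2 and the thioredoxin reductase Txnrd1 rose in all 4 comparisons made within a set. In old islets 6 of 8 genes rose at 3 mM, 4 of 8 at 5.5 mM and 4 of 8 at 11 mM, and in young islets 7 of 8 rose at 11 mM (replicates 3 and 4). No gene of the 8 fell. Of all 12580 genes, 16.6%, 8.7%, 2.79% and 1.68% rose in these same 4 comparisons, and 35.1%, 17%, 5.56% and 4.19% changed in either direction. The median log2 change of the 8 genes was 0.74, 0.54, 0.77 and 0.82, against -0.06, -0.02, 0.02 and -0.00 over all genes. The shares and medians of all genes are context and not a test, since the 8 genes were chosen with earlier results of these data known. The 3 comparisons of old cultures share the same 2 fresh arrays. A gene is said to rise or fall where its Benjamini-Hochberg adjusted p in limma over all 12580 genes is under 0.05, and a log2 change is that of (signal + 16), with its moderated standard error (SE).

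Hmox1 encodes heme oxygenase 1, which opens the heme ring and yields biliverdin, iron and carbon monoxide. Its signals were 140 and 214 at 3 mM, 156 and 156 at 5.5 mM and 146 and 143 at 11 mM in old cultured islets, against 6 and 25 in old fresh islets. In young islets they were 116 and 123 at 11 mM (replicates 3 and 4), against 20 and 26 in fresh islets. All cultured arrays were above all fresh arrays, and the fresh arrays were the only 4 of the 26 on which Hmox1 lay below the array median. In old islets the log2 change was 2.66 at 3 mM (SE 0.44, adjusted p = 0.000104), 2.52 at 5.5 mM (adjusted p = 0.00049) and 2.42 at 11 mM (adjusted p = 0.00151). The change in young islets at 11 mM was 1.80 (SE 0.44, adjusted p = 0.0215). With fresh signals this close to the added 16, the size depends on that offset: with 64 added, the young change was 1.08 (adjusted p = 0.102). Across set A, both fresh groups overlapped at the low end, followed by young islets at 11 mM and then by old islets at 11, 5.5 and 3 mM, where the arrays at 3 mM (140 and 214) lay on either side of those at 11 and 5.5 mM.

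Gclc and Gclm encode the catalytic and the modifier subunit of glutamate-cysteine ligase, the rate-limiting enzyme of glutathione synthesis. Gclm had 1632 and 1642 at 3 mM, 1480 and 1327 at 5.5 mM and 1324 and 1139 at 11 mM in old cultured islets, against 786 and 701 in old fresh islets. Its young signals were 1328 and 1157 at 11 mM (replicates 3 and 4), against 728 and 792 in fresh islets. No cultured array overlapped a fresh array of its age. Gclm rose in old islets at 3 mM (log2 change 1.12, SE 0.26, adjusted p = 0.00196) and at 5.5 mM (0.90, adjusted p = 0.0197), and did not pass at 11 mM in old (0.71, adjusted p = 0.118) or in young islets (0.70, adjusted p = 0.16). Its second probe set passed in young islets at 11 mM (1.04, adjusted p = 0.00593).

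Gclc had 446 and 495 at 3 mM, 398 and 422 at 5.5 mM and 500 and 379 at 11 mM in old cultured islets, against 343 and 253 in old fresh islets. In young islets it had 455 and 486 at 11 mM (replicates 3 and 4), against 268 and 278 in fresh islets. The catalytic subunit was thus higher on every cultured array than on the fresh arrays of that age. It passed the test in old islets at 3 mM (log2 change 0.64, SE 0.20, adjusted p = 0.0142) and in young islets at 11 mM (0.75, SE 0.20, adjusted p = 0.0307), while the old changes at 5.5 mM (0.45) and 11 mM (0.54) had adjusted p = 0.121 each. Within set A the groups of cultured islets overlapped in a chain from old islets at 5.5 mM to young islets at 11 mM, as both fresh groups did below them.

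Gpx2 encodes a selenium-dependent glutathione peroxidase best known from the gut epithelium. Signals in old islets were 309 and 216 at 3 mM, 217 and 210 at 5.5 mM and 271 and 293 at 11 mM, against 122 and 122 in fresh islets. Young islets had 674 and 724 at 11 mM (replicates 3 and 4), against 254 and 274 in fresh islets. The log2 change in old islets was 0.99 at 3 mM (SE 0.21, adjusted p = 0.000951), 0.73 at 5.5 mM (adjusted p = 0.0193) and 1.11 at 11 mM (adjusted p = 0.00194). The young change at 11 mM was 1.35 (SE 0.21, adjusted p = 0.000329), which corresponds to a ratio of 2.55. Old fresh islets had the lowest level of set A and young islets at 11 mM the highest, each apart from its neighbour, with young fresh islets among the old cultured groups.

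Txnrd1 encodes the cytosolic thioredoxin reductase, which returns electrons from NADPH to thioredoxin. Its signals were 1328 and 1500 at 3 mM, 1442 and 1492 at 5.5 mM and 1767 and 1571 at 11 mM in old cultured islets, against 961 and 918 in old fresh islets. At 11 mM young islets had 1317 and 1164 (replicates 3 and 4), against 574 and 508 in fresh islets. The log2 change was 0.58 (SE 0.13, adjusted p = 0.00146), 0.63 (adjusted p = 0.00169) and 0.82 (adjusted p = 0.000315) in old islets at 3, 5.5 and 11 mM. In young islets at 11 mM it was 1.17 (SE 0.13, adjusted p = 4.38e-06). The order within set A was young fresh, old fresh, young at 11 mM, old at 3 and 5.5 mM, which overlapped, and old at 11 mM, and all other neighbours were apart. The 2 dimmer probe sets of Txnrd1 did not pass in old islets at 5.5 mM (adjusted p = 0.397 and 0.0631) or 11 mM (adjusted p = 0.992 and 0.385). Neither passed in young islets at 11 mM (adjusted p = 0.517 and 0.0983), so these calls rest on the brightest probe set. In old islets at 3 mM the dimmest passed (0.92, adjusted p = 0.0159) and the second brightest did not (0.36, adjusted p = 0.381).

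Srxn1 encodes sulfiredoxin, which reactivates over-oxidised peroxiredoxins with ATP. It had 443 and 424 at 3 mM, 347 and 314 at 5.5 mM and 431 and 472 at 11 mM in old cultured islets, against 231 and 242 in old fresh islets. Young islets had 418 and 441 at 11 mM (replicates 3 and 4), against 236 and 266 in fresh islets. Cultured arrays were above fresh arrays of the same age without exception. Srxn1 rose in old islets at 3 mM (log2 change 0.83, SE 0.20, adjusted p = 0.00265) and 11 mM (0.89, adjusted p = 0.00816) and in young islets at 11 mM (0.74, SE 0.20, adjusted p = 0.0361). At 5.5 mM in old islets the change of 0.46 had adjusted p = 0.124. The dimmest of its 4 probe sets gave -0.23, -0.51 and -0.18 for the 3 changes that passed, none of them past the test. Those between it and the brightest passed in old islets at 3 mM (0.89 and 1.32, adjusted p = 0.00373 and 0.000973). At 11 mM they did not pass in old islets (0.69 and 0.36, adjusted p = 0.0801 and 0.549). Nor did they in young islets (0.62 and 0.65, adjusted p = 0.157 and 0.276), so the calls of Srxn1 at 11 mM rest on the brightest probe set.

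Nqo1, a quinone reductase that uses NADH or NADPH, and Osgin1, an oxidative stress-induced growth inhibitor, passed in young islets at 11 mM and in none of the 3 comparisons of old islets. Nqo1 signals in old islets were 83 and 95 at 3 mM, 83 and 104 at 5.5 mM and 64 and 109 at 11 mM, against 75 and 95 in fresh islets, and every group overlapped the fresh one. In young islets Nqo1 had 162 and 192 at 11 mM (replicates 3 and 4), against 93 and 82 in fresh islets (log2 change 0.90, SE 0.22, adjusted p = 0.0212). The old changes of Nqo1 were between -0.01 and 0.12. The young rise of Nqo1 rests on the comparison within set A, since with all 4 young arrays at 11 mM and no array set factor it was 0.24 (adjusted p = 0.661). Osgin1 had 111 and 119, 85 and 132, and 112 and 130 in old islets at 3, 5.5 and 11 mM, against 102 and 98 in old fresh islets. In young islets it had 158 and 116 at 11 mM (replicates 3 and 4), against 92 and 67 in fresh islets (log2 change 0.68, SE 0.18, adjusted p = 0.0379). The old changes of Osgin1 were 0.17, 0.08 and 0.24, with no call.

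**Figure D2:**
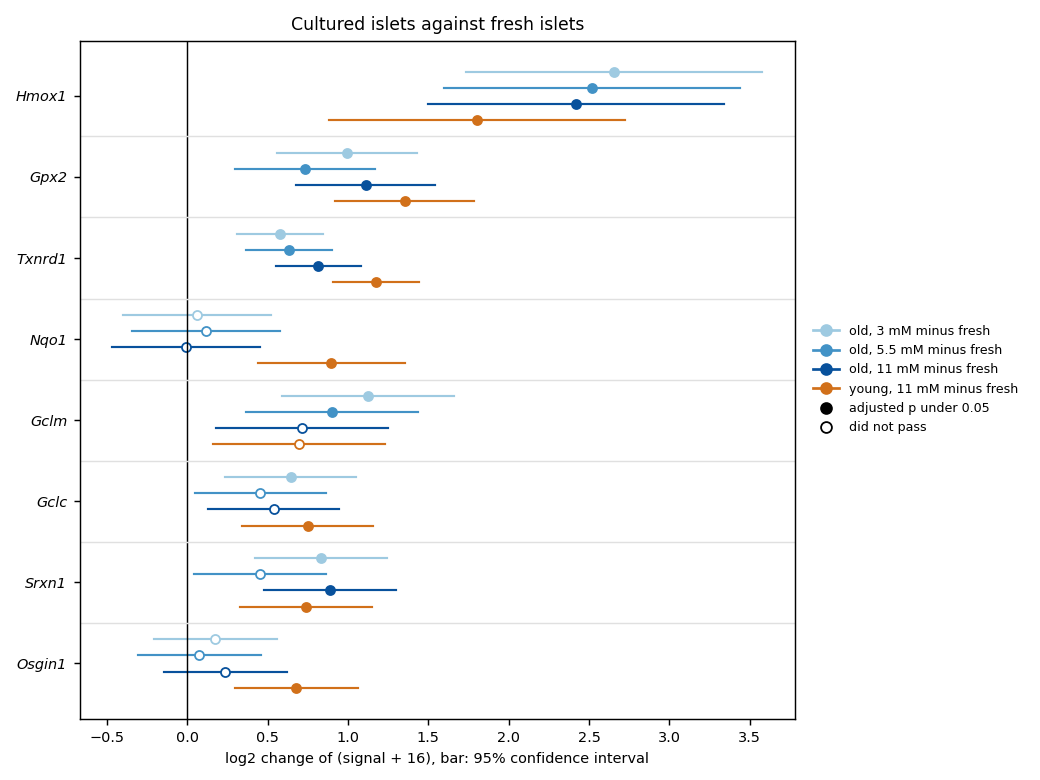
Log2 change of (signal + 16) in cultured minus fresh islets for 8 genes, with 95% confidence intervals, for old islets at 3, 5.5 and 11 mM (blues) and young islets at 11 mM (orange). Filled points passed an adjusted p of 0.05. Hmox1, Gpx2 and Txnrd1 are filled in all 4 comparisons, and Nqo1 and Osgin1 only in young islets.

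Several of these counts depended on single arrays. In young islets 2 genes passed without replicate 3 at 11 mM or without replicate 2 of fresh islets, and 3 without replicate 4 at 11 mM or replicate 1 of fresh islets, with Gpx2 and Txnrd1 called in all 6 such fits. In old islets 2 genes passed at 5.5 mM whichever of the 4 arrays was left out (Hmox1 and Txnrd1), and 2 at 11 mM without replicate 1 of fresh islets. Markers of other cells moved with culture. Summed signals of 7 acinar markers (digestive enzymes such as Cpa1 and Cel) were 152 to 632 in old cultured islets, against 19310 to 34466 in old fresh islets, and 314 to 643 in young islets at 11 mM (replicates 3 and 4), against 9016 to 16411 in young fresh islets. Summed signals of 6 endothelial markers were 330 to 499 in old cultured islets, against 2013 to 2047 in old fresh islets, and 385 to 448 in young islets at 11 mM, against 1890 to 2259 in young fresh islets. No marker of either list had a group mean of 0. Of 7 listed duct markers 3 were measured (nearly all of the signal was Krt7), with sums of 2030 to 2973 in old cultured islets, against 1209 to 1467 in old fresh islets, and 1330 to 1340 in young islets at 11 mM, against 800 to 1143 in young fresh islets. The 7 macrophage markers summed to 2264 to 2990 in old cultured islets, against 1855 to 2252 in old fresh islets, and to 1558 to 2223 in young islets at 11 mM, against 1485 to 1690 in young fresh islets. The 6 stellate or fibroblast markers summed to 1029 to 1900 in old cultured islets, against 874 to 947 in old fresh islets, and to 4012 to 4397 in young islets at 11 mM, against 2389 to 3573 in young fresh islets. Beta cell markers also moved. Their sums were 17697 to 19609 at 3 mM, 23856 to 24543 at 5.5 mM and 32719 to 39210 at 11 mM in old cultured islets, against 31329 to 40754 in old fresh islets, with 5, 3 and 0 of the 7 markers called lower and 0 higher. In young islets they were 38331 to 40278 at 11 mM (replicates 3 and 4), against 45652 to 47352 in fresh islets, with 0 of 7 called. The part of these cells in the changes was not tested, and in such bulk samples fewer cells of a type and less RNA per cell cannot be told apart.

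Over the glucose concentration of the culture, 0 to 2 of the 8 genes were called against 3 mM without the replicate number as a block. Txnrd1 was higher at 11 than at 3 mM in young islets, Gpx2 and Txnrd1 were higher at 16 than at 3 mM, and no gene of the 8 passed in old islets. Between 11 and 3 mM, 1 of 8 genes was called in young islets, where 26.4% of all genes were, and 0 of 8 in old islets, where 24.6% were. Between 16 and 3 mM in young islets, 2 of 8 were called, against 28.7% of all genes. At 5.5 against 3 mM, 0 of 8 passed in old islets (4.69% of all genes) and 0 of 8 in young islets (6.06%). Of these comparisons without a call, limma's unadjusted p was under 0.05 for 0 of 8 genes in both comparisons of old islets and for 1 of 8 (Txnrd1) at 5.5 against 3 mM in young islets. The share of all genes under that unadjusted cut is not given here or below. No such count is therefore read as a result about the 8 genes. Comparisons against 3 mM within an age share its 2 arrays. With the replicate number as a block, 1, 2 and 5 of 8 genes were called in young islets at 5.5, 11 and 16 against 3 mM (at 5.5 mM 1 lower, at 11 mM 1 higher and 1 lower, at 16 mM 3 higher and 2 lower), where 1531, 4246 and 4492 of all 12580 genes were.

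Beta cell markers moved with glucose in the same samples. Their sums were 17697 to 19609 at 3 mM, 23856 to 24543 at 5.5 mM and 32719 to 39210 at 11 mM in old islets. In young islets of set B they were 16420 to 19236 at 3 mM, 22081 to 24399 at 5.5 mM, 27562 to 33028 at 11 mM and 33438 to 37986 at 16 mM. Of the 7 markers, 5 were called higher at 11 against 3 mM in old islets (median log2 change 1.26), 4 at 11 against 3 mM in young islets (0.70) and 5 at 16 against 3 mM (0.72). The part of this shift in the changes of the 8 genes was not tested.

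Txnrd1 signals in young islets were 983 and 1109 at 3 mM, 1337 and 1226 at 5.5 mM, 1759 and 1438 at 11 mM (replicates 1 and 2) and 1481 and 1435 at 16 mM. Both arrays at 3 mM were below all others, and 11 and 16 mM overlapped. The log2 change against 3 mM was 0.29 at 5.5 mM (SE 0.13, adjusted p = 0.198), 0.60 at 11 mM (SE 0.13, adjusted p = 0.00165) and 0.48 at 16 mM (SE 0.13, adjusted p = 0.00795). In old islets 11 against 3 mM gave 0.24 (95% interval -0.03 to 0.50, adjusted p = 0.195), and the difference between the ages, -0.36, had adjusted p = 0.507. The second brightest probe set of Txnrd1 gave -0.17 at both 11 and 16 mM, and the mean of its 3 probe sets gave 0.17 and 0.18, none of them past the test.

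Gpx2 signals in young islets were 533 and 788 at 3 mM, 472 and 563 at 5.5 mM, 701 and 826 at 11 mM (replicates 1 and 2) and 1026 and 1490 at 16 mM. The 16 mM arrays were above all arrays at the other concentrations, and the lower 3 concentrations overlapped. Gpx2 rose at 16 against 3 mM (log2 change 0.91, SE 0.21, adjusted p = 0.00235). Against 11 mM the change was 0.69 (adjusted p = 0.266), in a comparison in which 0 of 8 genes and 0.00795% of all genes were called and Gpx2 was the 1 gene of 8 with an unadjusted p under 0.05 in limma. With the replicate number as a block, it had adjusted p = 0.0239. Neither Gpx2 nor Txnrd1 passed at 16 mM without replicate 1 at 3 mM, and Txnrd1 alone passed without replicate 2 at 16 mM.

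Hmox1 had its highest mean signal at the lowest glucose in both ages. Its young signals were 158 and 172 at 3 mM, 106 and 103 at 5.5 mM, 106 and 84 at 11 mM (replicates 1 and 2) and 114 and 79 at 16 mM. Both arrays at 3 mM were above the other 6. The log2 changes of -0.71 at 11 mM (adjusted p = 0.259) and -0.70 at 16 mM (adjusted p = 0.258) did not pass without a block, and with the replicate number as a block they had adjusted p = 0.00715 and 0.00713. In old islets 11 against 3 mM gave -0.24 (95% interval -1.16 to 0.68).

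Srxn1 had 515 and 460 at 3 mM, 546 and 316 at 5.5 mM, 604 and 512 at 11 mM (replicates 1 and 2) and 743 and 655 at 16 mM in young islets. Its change at 16 against 3 mM was 0.51 (SE 0.20, adjusted p = 0.0607), with adjusted p = 0.00495 under the replicate block. The other probe sets of Srxn1, from the second brightest to the dimmest, gave -0.14, -0.15 and 0.56 there without a block, none past the test. Osgin1 had 220 and 231, 177 and 203, 290 and 316 (replicates 1 and 2), and 261 and 338 at 3, 5.5, 11 and 16 mM in young islets. All its arrays at 11 and 16 mM were above those at 3 and 5.5 mM, with log2 changes of 0.40 (adjusted p = 0.115) and 0.38 (adjusted p = 0.136) against 3 mM. Nqo1 also had all its arrays at 11 and 16 mM above those at 3 and 5.5 mM, with 42 and 48, 36 and 33, 66 and 57 (replicates 1 and 2), and 64 and 58, and changes of 0.34 at 11 mM and at 16 mM that did not pass (adjusted p = 0.272 and 0.278).

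The 2 subunits of glutamate-cysteine ligase had no call over glucose. Gclm had 991 and 776 at 3 mM, 867 and 533 at 5.5 mM, 902 and 574 at 11 mM (replicates 1 and 2) and 911 and 556 at 16 mM in young islets, and in each group replicate 1 was above replicate 2. Its log2 change against 3 mM was -0.36 at 5.5 mM and -0.29 at 16 mM (adjusted p = 0.482 and 0.434), with adjusted p = 0.038 and 0.0432 under the replicate block. The second probe set of Gclm gave 0.14 at 5.5 mM and -0.27 at 16 mM without a block, neither past the test. In old islets the change of Gclm at 11 against 3 mM was -0.41 (95% interval -0.95 to 0.13, adjusted p = 0.271), and with set A arrays alone in the fit the same change passed (adjusted p = 0.0143). Gclc had 461 and 446, 431 and 362, 610 and 416 (replicates 1 and 2), and 621 and 457 at 3, 5.5, 11 and 16 mM, and its changes of -0.19, 0.15 and 0.23 against 3 mM did not pass.

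**Figure D3:**
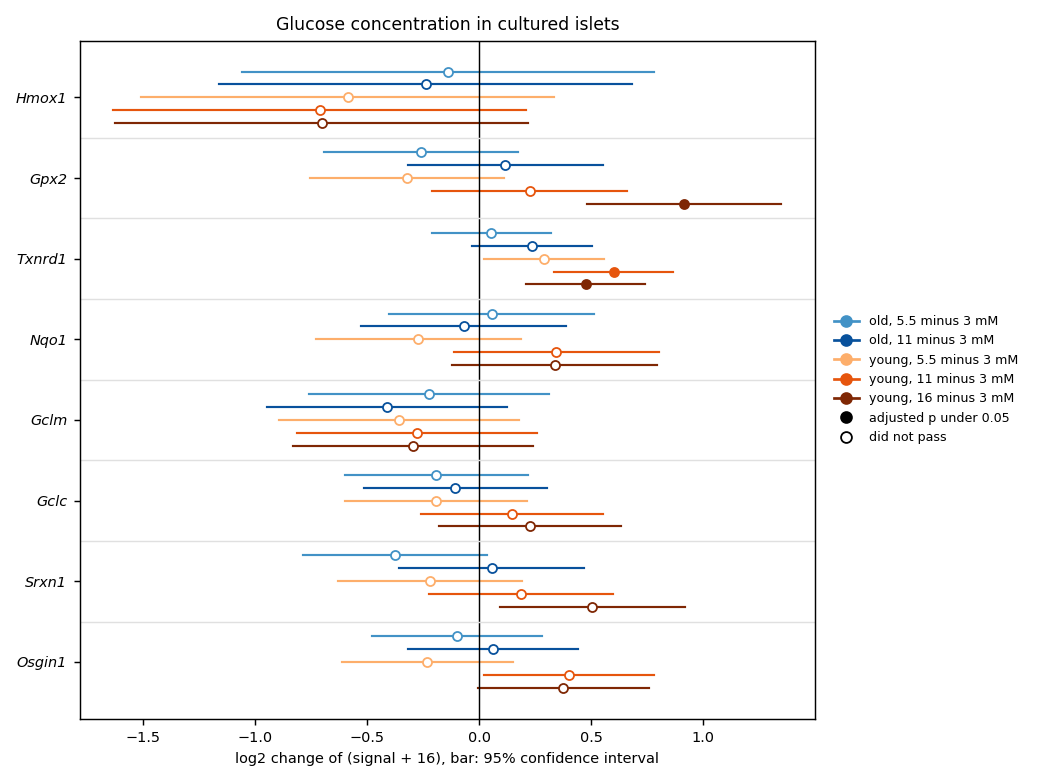
Log2 change of (signal + 16) against 3 mM glucose in cultured old (blues) and young (oranges) islets for 8 genes, with 95% confidence intervals. Filled points passed an adjusted p of 0.05, which are Txnrd1 at 11 and 16 mM and Gpx2 at 16 mM, all in young islets. The fit has no replicate block.

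After 4 h at 11 mM glucose, 4 of 8 genes (Txnrd1, Gclc, Srxn1 and Osgin1) were above their time 0 level and none was called lower, where 5.72% of all genes rose and 11.4% changed. The median log2 change of the 8 genes was 0.36, against -0.01 over all genes. After 1 h, 0 of 8 genes and 0.262% of all genes were called in limma. Osgin1 had an unadjusted p under 0.05 there (log2 change 0.49, adjusted p = 0.562), as 1 gene of the 8. Both comparisons use the same 2 arrays of time 0. Summed acinar marker signals were 781 to 6336 at time 0, 235 to 4063 at 1 h and 771 to 1696 at 4 h. Stellate or fibroblast markers summed to 1721 to 1723, 1472 to 1551 and 1254 to 1304 at 0, 1 and 4 h, without overlap, with 0 of 6 markers called at 4 h and a median log2 change of -0.37. The part of these cells in the changes was not tested. With the replicate number as a block, 0 of 8 genes and 78 of all genes were called at 1 h, and 5 of 8 and 2152 of all genes at 4 h. The gene added was Hmox1, which was called lower.

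Osgin1 signals were 191 and 168 at time 0, 274 and 244 at 1 h and 362 and 427 at 4 h. No 2 time points overlapped. The log2 change at 4 h was 1.07 (SE 0.18, adjusted p = 0.000641), a ratio of 2.10, and it passed whichever of the 4 arrays was left out. Gclc had 531 and 630 at time 0, 543 and 694 at 1 h and 916 and 1229 at 4 h (log2 change at 4 h 0.86, SE 0.20, adjusted p = 0.00653). Its second probe set also passed (0.81, adjusted p = 0.00342). The modifier subunit Gclm, with 1155 and 1368, 988 and 1513, and 1053 and 1591 at 0, 1 and 4 h, did not (0.04, 95% interval -0.49 to 0.58).

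Srxn1 had 619 and 792 at time 0, 672 and 1027 at 1 h and 1188 and 1363 at 4 h, with a log2 change of 0.85 at 4 h (SE 0.20, adjusted p = 0.0075). Txnrd1 had 1578 and 1926 at time 0, 1633 and 1990 at 1 h and 2314 and 2502 at 4 h, with a log2 change of 0.46 (SE 0.13, adjusted p = 0.0222). Of both genes the 4 h arrays were above all earlier ones. Only Osgin1 passed at 4 h without replicate 1 of time 0 or without replicate 2 of 4 h. The other 3 probe sets of Srxn1 gave 0.30 to 0.42 and did not pass, nor did the other 2 of Txnrd1 (0.90 and 0.61, adjusted p = 0.0545 and 0.19).

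Hmox1 was lower at 4 h than at time 0 in both replicates, with 241 and 559 at time 0, 189 and 579 at 1 h and 120 and 359 at 4 h. The replicates differed more than the times did, and the groups overlapped. The log2 change at 4 h was -0.77 (adjusted p = 0.316), and -0.77 with adjusted p = 0.00828 with the replicate number as a block. Gpx2 had 657 and 927, 677 and 791, and 792 and 1086, and Nqo1 had 53 and 62, 47 and 71, and 57 and 91, at 0, 1 and 4 h. Their changes at 4 h were 0.24 and 0.27 and did not pass (adjusted p = 0.546 and 0.523).

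**Figure D4:**
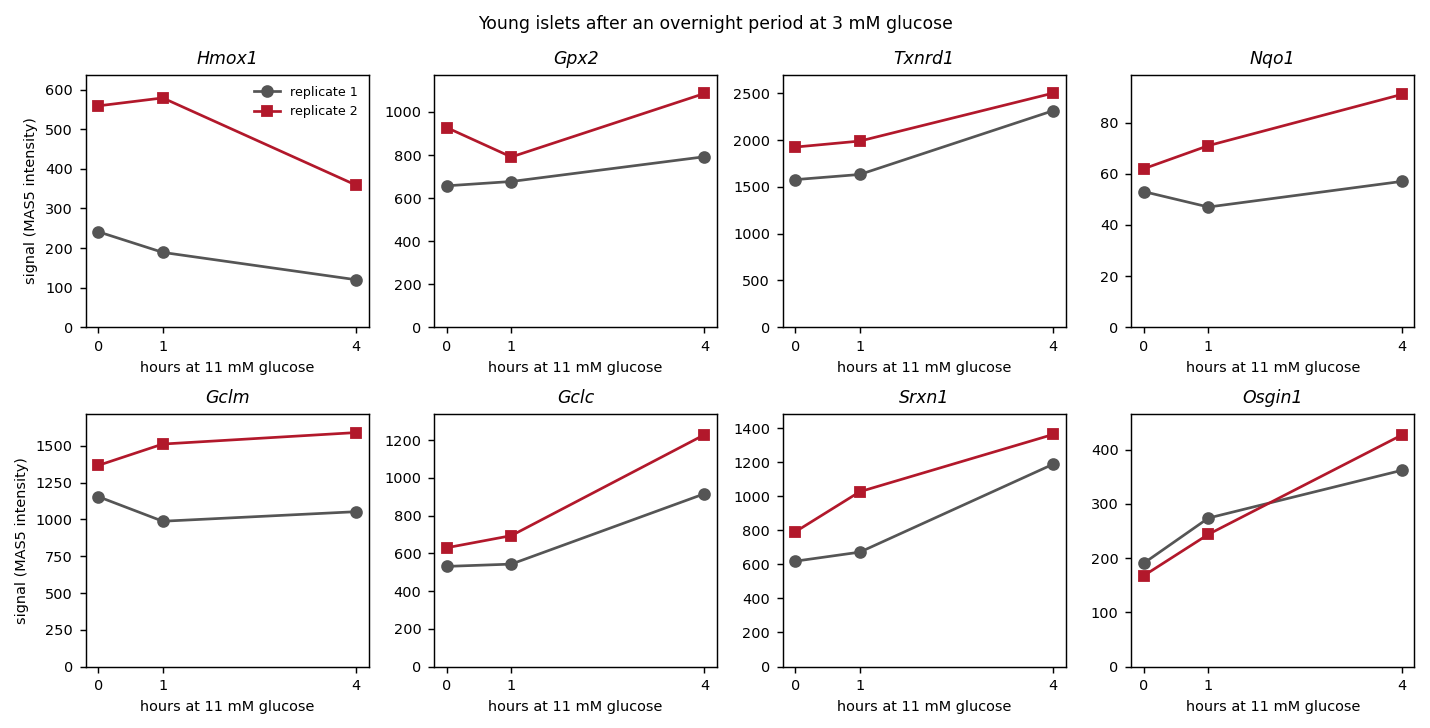
Signal (MAS5 intensity, linear axis from 0) of 8 genes in young islets at 0, 1 and 4 h at 11 mM glucose after an overnight period at 3 mM, with a line for each of the 2 replicates. Osgin1, Gclc, Srxn1 and Txnrd1 are higher at 4 h than at time 0 in both replicates, and Hmox1 is lower in both.

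In fresh islets Gpx2 was lower and Txnrd1 higher in old than in young mice. Gpx2 was 122 and 122 in old fresh islets, against 254 and 274 in young fresh islets (log2 difference -1.02, SE 0.21, adjusted p = 0.0041). Txnrd1 was 961 and 918 in old fresh islets, against 574 and 508 in young fresh islets (0.78, SE 0.13, adjusted p = 0.000721). The difference of Txnrd1 rests on its brightest probe set, since the other 2 gave 0.017 and 0.32 (adjusted p = 0.981 and 0.542) and the mean of its 3 probe sets gave 0.37 (adjusted p = 0.255). These were 2 of 8 genes, where 9.44% of all genes differed. The other 6 had differences between -0.37 (Hmox1, 95% interval -1.29 to 0.55) and 0.29 (Osgin1, -0.09 to 0.67). Summed acinar markers were 19310 to 34466 in old fresh islets, against 9016 to 16411 in young fresh islets, with 0 of 7 called (median log2 difference 1.32). Summed stellate or fibroblast markers were 874 to 947 in old fresh islets, against 2389 to 3573 in young fresh islets, with 5 of 6 called lower (median -1.09). The part of these cells in the age differences was not tested.

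At 11 mM the comparison of ages, within set A, called 3 of 8 genes and 15.6% of all genes. Gpx2 was lower in old islets (271 and 293, against 674 and 724 in young islets, log2 difference -1.26, SE 0.21, adjusted p = 0.000444). Nqo1 was lower in old islets (64 and 109, against 162 and 192, -0.94, SE 0.22, adjusted p = 0.00608), while without the array set factor it was -0.29 (adjusted p = 0.639). Txnrd1 was higher in old islets (1767 and 1571, against 1317 and 1164, 0.42, SE 0.13, adjusted p = 0.0294), although its dimmer probe sets gave -0.46 and -0.074 and the mean of its 3 probe sets -0.037. Gpx2 passed whichever array of this comparison was left out, and Txnrd1 did not pass without any of them (log2 difference 0.34 to 0.51). Nqo1 did not pass without replicate 1 of old islets (-0.62) or without replicate 4 of young islets (-0.83). Old and young islets also differed in summed macrophage markers at 11 mM (2966 to 2990 in old, against 1558 to 2223 in young islets) and in stellate or fibroblast markers (1478 to 1605 in old, against 4012 to 4397 in young islets), and their part in these differences was not tested.

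The difference between the ages in the change with culture was tested directly. None of the 8 genes passed, where 0.0238% of all genes did, and 1 of 8 had an unadjusted p under 0.05 in limma. That gene was Nqo1, whose change with culture, old minus young, was -0.90 (SE 0.31, unadjusted p = 0.00859, adjusted p = 0.455). For 11 against 3 mM, 0 of 8 genes passed, 0 had an unadjusted p under 0.05 and 0.143% of all genes passed. There the old change lies within set A and the young change within set B. The calls of Nqo1 and Osgin1 in young islets and their absence in old islets are therefore not shown to differ.

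Further genes of the pathway were taken from 7 lists of 62 genes, of which 56 were tested. These lists too were chosen with earlier results of these data known. Each list gene was read from its brightest probe set alone, and how its call depends on other probe sets, single arrays or settings was not examined. Their counts are read against the shares of all genes called higher given above for culture (16.6%, 8.7% and 2.79% in old islets at 3, 5.5 and 11 mM, 1.68% in young islets at 11 mM). Of 8 regulators, 1 rose with culture at 11 mM in old islets (Mafg, a small MAF partner of NRF2, log2 change 0.51, adjusted p = 0.0485) and 0 in young islets, with 0 lower in either, and their median log2 change was 0.13 at both ages. At 3 mM 4 of 8 regulators were higher in old cultured than in old fresh islets, namely Mafg (0.87), the autophagy receptor Sqstm1 (0.88), Maff (1.04) and Bach1 (0.50). Against 3 mM, Maff was lower at 11 mM in old (-1.04, adjusted p = 0.0455) and young islets (-1.35, adjusted p = 0.0102) and at 16 mM in young islets (-1.31, adjusted p = 0.011). Sqstm1 was lower in young islets at 11 mM (-0.65, adjusted p = 0.0393) and 16 mM (-0.69, adjusted p = 0.0265). Nfe2l2 and Keap1 themselves were not called in any of the 4 comparisons of cultured with fresh islets, with log2 changes of 0.09 to 0.41 for Nfe2l2 and -0.03 to 0.17 for Keap1.

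Of 16 tested glutathione genes, 4 rose and 0 fell with culture at 11 mM in old islets, and 5 rose and 1 fell in young islets, with medians of 0.19 and 0.41 against 0.02 and -0.00 over all genes. The glutathione transferase Gstp1 rose by 1.32 in old (SE 0.11, adjusted p = 1.04e-07) and by 2.39 in young islets (SE 0.11, adjusted p = 3.43e-11). Gstm1 rose by 1.77 (SE 0.26) and 1.94 (SE 0.26) and Gstm2 by 0.89 (SE 0.20) and 1.11 (SE 0.20) in old and young islets at 11 mM. Gpx4, which reduces lipid peroxides, rose by 0.88 (SE 0.12, adjusted p = 8.26e-05) in old islets at 11 mM, and the secreted peroxidase Gpx3 fell in young islets (-0.75, SE 0.16, adjusted p = 0.00779). Among 8 detoxification genes, 3 rose in old islets (Ugdh, which makes UDP-glucuronic acid, by 0.85, the carbonyl reductase Cbr1 by 0.67 and the epoxide hydrolase Ephx1 by 0.73) and 1 in young islets (Ugdh, by 1.16, SE 0.16, adjusted p = 9.1e-05), with 0 lower. Of 7 heme and iron genes, 3 rose in old islets (the biliverdin reductases Blvra and Blvrb by 0.53 and 0.89, and the ferritin heavy chain Fth1 by 0.43) and 1 in young islets (Blvra, by 0.55), again with 0 lower. The median change at 11 mM in old and young islets was 0.46 and 0.18 for the detoxification genes and 0.43 and 0.20 for the heme and iron genes. Of 5 tested NADPH supply genes, 1 rose in old islets (the phosphogluconate dehydrogenase Pgd, 0.83, adjusted p = 0.0409) and 0 in young islets. Of 8 thioredoxin and peroxiredoxin genes, 0 rose at either age, and the mitochondrial thioredoxin reductase Txnrd2 fell in young islets (-0.64, SE 0.13, adjusted p = 0.00654). Of 4 superoxide and peroxide genes, 1 rose in old islets (Sod1, 0.49, adjusted p = 0.048) and 0 in young islets.

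In old islets at 3 mM against fresh islets, 4 of 16 glutathione genes rose (Gpx4, 1.22, Gstp1, 0.99, Gsto1, 1.56, and Gstm1, 1.57) and 1 fell, and at 5.5 mM 6 rose and 1 fell, with Gpx4 (1.12), Gstp1 (0.98), Gstm1 (1.82) and Gsto1 (1.28) among those that rose. Of 8 detoxification genes, 2 rose and 1 fell at both concentrations. These were Ugdh (0.95 and 0.73), Ephx1 (0.79 and 0.70) and the exporter Abcc4, which fell (-1.22 and -0.87). Of 7 heme and iron genes, 4 rose at 3 mM (the ferrochelatase Fech, 0.48, Blvrb, 1.04, Fth1, 0.43, and the constitutive heme oxygenase Hmox2, 0.44) and 2 at 5.5 mM (Blvrb, 0.95, and Hmox2, 0.46). Of the superoxide and peroxide genes, 3 of 4 rose at both, namely Sod1 (1.21 and 0.99), Sod2 (0.84 and 0.82) and Cat (0.96 and 0.56). Of 8 thioredoxin and peroxiredoxin genes, 2 rose at 3 mM (Txn2, 0.44, and the stress gene Sesn2, 0.52) and 2 at 5.5 mM (Sesn2, 0.68, and Txnrd3, 0.51). Of 5 NADPH supply genes, 1 fell at 3 mM (Idh1, -1.02) and 0 changed at 5.5 mM. The regulators Sqstm1 (0.96) and Mafg (0.45) were the 2 of 8 that rose at 5.5 mM.

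Over glucose, 7 of the 56 genes rose and 8 fell at 11 against 3 mM in old islets, 5 rose and 10 fell in young islets, and 7 rose and 12 fell at 16 against 3 mM in young islets, where 24.6%, 26.4% and 28.7% of all genes changed. Against 3 mM, the superoxide and peroxide genes were called lower for 3 of 4 in old islets at 11 mM and 2 of 4 in young islets at 11 and at 16 mM, with 0 higher. Their median changes were -0.56, -0.58 and -0.44, against 0.04, 0.05 and 0.01 over all genes. Catalase (Cat) had a log2 change of -0.85 in old islets at 11 mM (SE 0.19, adjusted p = 0.00234), and in young islets of -1.22 at 11 mM and -1.60 at 16 mM (SE 0.19 each, adjusted p = 8.68e-05 and 3.29e-06). The mitochondrial superoxide dismutase Sod2 fell in the same 3 comparisons (-0.41, -0.86 and -0.85). Of the glutathione genes, 3 were higher and 3 lower at 11 against 3 mM in each age. The transferase Gsto1 fell (-1.55 in old and -2.14 in young islets), as did the glutathione synthetase Gss (-0.58 and -0.81), while the glutaredoxin Glrx rose (1.31 and 0.84). Gstm2 rose in old islets (1.18, SE 0.20), and Gpx4 fell in young islets (-0.82, SE 0.12). At 16 against 3 mM, 4 of 16 rose and 4 fell, with Gsto1 (-2.38), Gss (-0.91), Gpx4 (-0.77) and Gstp1 (0.53) as the 4 of smallest adjusted p. The NADP-dependent isocitrate dehydrogenase Idh1 was higher at 11 than at 3 mM in old (1.30, SE 0.23) and young islets (1.61, SE 0.23) and at 16 mM in young islets (1.51, SE 0.23), as the 1 of 5 tested NADPH supply genes called there. Of 7 heme and iron genes, 1 rose and 1 fell in each of the 3 comparisons. Blvra rose (0.43 in old islets, 0.45 and 0.48 in young islets at 11 and 16 mM), while Fech fell in old islets (-0.36) and Hmox2 in young islets (-0.65 and -0.84). Of 8 detoxification genes, 1 rose in old islets (Abcc4, 1.16, adjusted p = 0.00472) and 0 changed in young islets. Of 8 thioredoxin and peroxiredoxin genes at 11 against 3 mM, 1 rose in old islets (Txn1, 0.43, adjusted p = 0.0406) and 2 fell in young islets (Txn2, -0.76, and Txnrd3, -0.54), and at 16 against 3 mM 1 rose (Txn1, 0.58) and 3 fell (Txnrd3, -0.80, Txn2, -0.62, and Sesn2, -0.67). Sod1 fell in old islets at 11 against 3 mM (-0.72, SE 0.14).

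The genes were set beside one another across arrays as a description. Over the 12 arrays of set A, which share fresh and cultured islets of both ages, the 28 pairs of the 8 genes had Pearson r between 0.0833 and 0.926 (median 0.608), all positive. Over the 14 arrays of set B, all of cultured islets, r was between -0.213 and 0.936 (median 0.568), and 26 of 28 were positive. The 5 other genes with the highest r to the mean of the 8 genes over set A were Ugdh (0.981), Gstp1 (0.967), the matrix genes Tnc (0.939) and Fn1 (0.935) and Id3 (0.932). Ugdh was also the gene most like Gclc (0.946), and Eif2s2 was the one most like Hmox1 (0.972) and Srxn1 (0.95). The most like Gclm was Igfbp5 (0.988), that of Txnrd1 was Aldh1l2 (0.976), that of Gpx2 was Ugt2b35 (0.942), that of Osgin1 was Rnf113a1 (0.917) and that of Nqo1 was Lox (0.9). All these values share the 12 arrays and their contrast of cultured and fresh islets.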

How the data were processed

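Total RNA of mouse islets was measured on 26 Affymetrix arrays. Trizol extraction and labelling of 50 ng with 2 cycles of cDNA synthesis are per the labels' protocols. The authors deposited linear intensity values per probe set, from MAS5 according to the submitters' processing notes (version not given in the sources used here). These are whole numbers already scaled to a trimmed mean of 150 on each array. Precision is limited by the number of arrays, and detection calls were not used here. Samples were grouped by their titles, and 0 columns of values were unmapped.

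Of 45101 probe sets, 34945 have 1 symbol in the platform annotation, 932 several, 9160 none, and 64 are controls. Symbols of 34741 were updated through Entrez identifiers with a gene table of GRCm38.p6. Values were transformed as log2(value + 16), which understates changes of dim genes. The filter kept 23047 probe sets that exceeded the array median on at least 2 arrays, and the brightest per gene stood for it (12580 genes). All 8 measured genes passed this filter. Limma 3.58.1 in R 4.3.3 fitted 12 group means and the array set (Gapdh ratio above or below 0.6) over 26 arrays, with an intensity trend (13 residual and 7.02 prior degrees of freedom), and 16 comparisons were made, adjusted by Benjamini-Hochberg over all genes. The set term rests on young islets at 11 mM alone, so that each comparison compares arrays of 1 set. The fit was tested on simulated data. Motifs were searched by exact letters on both strands.

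The deviations from the group mean of arrays with the same number correlated at 0.551 to 0.63 over 3 pairs of time course groups and 0.169 to 0.417 over 6 pairs of young cultured groups of set B, so the numbers of the labels were taken to pair those arrays. The main fit does not use this pairing, and the replicate block does. Over 6 pairs of old groups the correlations were 0.0556 to 0.196, and no pairing was taken. Arrays of the same group correlated at 0.975 to 0.989, and 0 pairs were identical. Alternatives were no set factor, the arrays of 1 set alone, a replicate block, offsets of 1 and 64, other filters, quantile normalization, no intensity trend, the mean of a gene's probe sets, each array left out, and, added after the data were seen, each single probe set.

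The members and the gene lists were chosen with earlier results of these data known. The text names all measured members, for each list up to 4 genes that passed 0.05, taken by smallest adjusted p, in the comparisons of culture and of 11 or 16 with 3 mM, and the genes most correlated with the members. Nfe2l2 and Keap1 fall outside this rule, and were added after their values were seen. Of the lists, 6 genes (Ggt1, Prdx5, Prdx6, Sod3, Ftl1 and G6pdx) were not tested.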

Additional observations from a re-analysis of the deposited data

How the results depend on the processing

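Of 33 called changes of single genes, 425 of 519 recomputed values kept call and direction, and of 95 changes without a call, 25 of 1537 recomputed values passed. The numbers of the 8 genes called moved in these settings. With the mean of a gene's probe sets, 2 were called (main 4) for old islets at 11 mM against fresh, 0 (1) for young at 11 against 3 mM, 1 (2) for young at 16 against 3 mM and 1 (2) for old against young fresh islets. Without the array set factor, 2 (1) were called for young at 11 against 3 mM, with Nqo1 passing at 1.00 (adjusted p = 0.0246), 2 (4) for 4 h against time 0 and 1 (3) for old against young at 11 mM. With the arrays of the comparison's set alone, 1 (0) was called for old at 11 against 3 mM. The replicate block gave 1 (0) for old at 11 against 3 mM, 1 (0) for young at 5.5 against 3 mM, 2 (1) for young at 11 against 3 mM, 5 (2) for young at 16 against 3 mM and 1 (0) for young at 16 against 11 mM. In old islets, whose numbers were not taken to pair, the block also called Gclc and Srxn1 at 5.5 mM against fresh (adjusted p = 0.0178 and 0.0154), Gclm and Gclc at 11 mM against fresh (0.000173 and 0.0126) and Gclm at 11 against 3 mM (0.00724), and in young islets Gclm at 11 mM against fresh (0.000297). At 4 h against time 0 it also called Hmox1 (0.00828). Over glucose in young islets it added Gclm at 5.5 mM, Hmox1 at 11 mM and Hmox1, Gclm and Srxn1 at 16 mM, all against 3 mM, and Gpx2 at 16 against 11 mM. It changed no further call of these 8 genes. In the ranges below, some fits leave out young arrays at 11 mM of the other set. Those arrays do not enter a comparison within a set, so such fits are no check of it. With each array left out in turn, the numbers called ran from 5 to 6 for old at 3 mM against fresh, 2 to 2 at 5.5 mM, 2 to 4 at 11 mM, 2 to 7 for young at 11 mM against fresh, 0 to 2 for young at 16 against 3 mM, 1 to 4 for 4 h against time 0 and 1 to 3 for old against young at 11 mM.

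Reversed values came from single probe sets, or their mean, of 2 genes. The dimmest Srxn1 probe set gave -0.23, -0.51 and -0.18 for culture against fresh islets in old at 3 mM, old at 11 mM and young at 11 mM, and the third brightest gave -0.96 (adjusted p = 0.0153) for old at 11 against 3 mM. The second brightest Txnrd1 probe set gave -0.17 for young at 11 and -0.17 at 16 against 3 mM and -0.46 for old against young at 11 mM, where the dimmest gave -0.074 and the mean of probe sets -0.037. Apart from single probe sets and single arrays left out, these calls were lost (adjusted p): in young islets at 11 mM against fresh, Osgin1 with set A alone (0.0773) and with offset 64 (0.0539), Hmox1 with offset 64 (0.102), Nqo1 without the set factor (0.661), Gclc and Srxn1 without the intensity trend (0.0523 and 0.0602) and Srxn1 with the mean of probe sets (0.218). In old islets against fresh, Gclm at 5.5 mM without the set factor (0.0864) and Txnrd1 and Srxn1 at 11 mM with the mean of probe sets (0.209 and 0.308) were lost. With the mean of probe sets, Txnrd1 was also lost at 11 and 16 against 3 mM in young islets (0.588 and 0.53) and in old against young fresh islets (0.255), and Srxn1 at 4 h (0.105). At 4 h, Txnrd1 was lost with set B alone (0.0652) and without the set factor (0.114), and Osgin1 without it (0.0512). Between ages at 11 mM, Txnrd1 and Nqo1 were lost without the set factor (0.299 and 0.639). The cause of these shifts was not tested.

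Of all 12580 genes, the numbers called moved by over 1.5 times as follows. Without the set factor they were 1100 (main 2142) and 359 (699) for old at 5.5 and 11 mM against fresh, 828 (527) for young at 11 mM against fresh, 83 (590) and 1734 (3090) for old at 5.5 and 11 against 3 mM, 149 (762) and 2272 (3613) for young at 5.5 and 16 against 3 mM, 2 (1) for young at 16 against 11 mM, 8 (33) at 1 h, 621 (1428) at 4 h, 266 (1188) and 869 (1961) for age in fresh islets and at 11 mM, and 0 (3) and 1 (18) for the differences between ages in culture and in glucose. The replicate block gave 1282, 946, 1387, 1531, 102, 78, 2152, 2104, 22 and 142 for old at 11 mM and young at 11 mM against fresh, old and young at 5.5 against 3 mM, young at 16 against 11 mM, 1 h, 4 h, age in fresh islets and the 2 differences. Arrays of 1 set alone gave 390 for young at 5.5 against 3 mM, 0 for 16 against 11 mM and 7 at 1 h. For 16 against 11 mM, offsets 1 and 64 gave 3 each, and no filter, quantile normalization, no trend and the mean of probe sets 0 each. For the difference in culture, offset 64 gave 5, the filter on 13 arrays 1 and quantile normalization 1, and for that in glucose offset 64 gave 33, no trend 6 and the mean of probe sets 8. With single arrays left out, all 16 comparisons moved by over 1.5 times at 1 end. They ran over 2857 to 3389, 905 to 1357 and 306 to 671 for old islets at 3, 5.5 and 11 mM against fresh, 287 to 535 for young islets at 11 mM against fresh, 54 to 311 and 1599 to 2317 for old islets at 5.5 and 11 against 3 mM, 112 to 661, 1919 to 3225 and 2348 to 3064 for young islets at 5.5, 11 and 16 against 3 mM, 0 to 57 for 16 against 11 mM, 0 to 28 at 1 h, 652 to 905 at 4 h, 414 to 668 and 729 to 1945 for age in fresh islets and at 11 mM, and 0 to 7 and 0 to 21 for the 2 differences. With 2 arrays in most groups, precision is limited. The SE of Hmox1 (0.44 between 2 groups) was the largest of the 8 genes, and that of Nqo1 was 0.22.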

Other observations

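Genes with more than 1 probe set can be read again from the dimmer ones. The second Gclm probe set was lower in old than in young islets at 11 mM (log2 difference -0.83, adjusted p = 0.0117), where the brightest one gave -0.01. The third brightest Srxn1 probe set fell at 11 against 3 mM in old islets (-0.96, adjusted p = 0.0153), where the brightest one gave 0.06, and the second brightest fell at 5.5 against 3 mM in young islets (-0.84, adjusted p = 0.0286), where the brightest one gave -0.22.

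Young islets at 11 mM were hybridised in both array sets, which is the only direct view of a gene in both. Osgin1 had 158 and 116 in replicates 3 and 4 (set A), and 290 and 316 in replicates 1 and 2 (set B). Nqo1 had 162 and 192 in set A, and 66 and 57 in set B. Gclm had 1328 and 1157 in set A, and 902 and 574 in set B. The groups of replicates did not overlap for these 3 genes, and levels of different sets are not set against each other for this reason.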
